A study of Mus musculus with 6 samples.

Results

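The genes described here are the nuclear-encoded subunits of the mitochondrial respiratory chain, complexes I to IV, and of the ATP synthase, complex V. They were chosen by name: gene symbols beginning Nduf followed by a, b, c, s or v and a digit, the 4 Sdh subunits, symbols beginning Uqcr, Cyc1, Cox4 to Cox8 subunits with a letter a, b or c, and symbols beginning Atp5. Of 53647 genes in the table, 103 matched. Of these, 13 with -ps in the symbol and 8 with a mean below 1 FPKM (fragments scaled to transcript length and to library size) were left out, and 82 remained: 39 of complex I, 4 of complex II, 9 of complex III, 13 of complex IV and 17 of complex V. The cut on level fell in a wide gap, with Ndufs6b at 1.6 FPKM and Cox7a1 at 2.2 FPKM just inside and Cox6b2 at 0.0271 FPKM and Ndufa11b at 0.026 FPKM just outside. All 82 entered the fit, which held 16031 genes.

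The RNA came from macrophages of pancreatic ductal adenocarcinoma tumours grown orthotopically, that is in the pancreas, in C57BL/6 mice. The macrophages were sorted by Cxcr4, the receptor for the chemokine Cxcl12, into a Cxcr4+ and a Cxcr4- population, with 3 libraries of total RNA from each and no other factor between them. All libraries came from tumour-bearing mice, and the labels give neither the tumour line nor the age or number of the mice. Whether replicates are different animals is not stated, and the p-values here cover the variation among 6 libraries, which may be technical. The single comparison, Cxcr4+ minus Cxcr4-, asks how the transcriptomes of the sorted macrophages differ, and the 82 genes are followed through it here.

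Complex I oxidises NADH and complex II oxidises succinate, and both pass electrons to ubiquinone. Complex III hands them to cytochrome c, complex IV gives them to oxygen, and complex V uses the proton gradient that complexes I, III and IV build to make ATP. All subunits of complex II and most of the others are encoded in the nucleus, while a small set of core subunits of complexes I, III, IV and V is encoded in mitochondrial DNA (mtDNA). In macrophages, oxidative phosphorylation is known to change with activation state: it is high in cells activated by IL-4 and is lowered in cells activated by lipopolysaccharide and interferon gamma.

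The libraries held 46444934 to 55740671 estimated counts and 19457 to 20433 genes with a count above 0. Cxcr4 itself, the gene of the sort, stood at 9.18, 9.04 and 9.59 FPKM in Cxcr4+ libraries 1, 2 and 3 and at 8.56, 5.97 and 7.73 FPKM in Cxcr4- libraries 1, 2 and 3. The groups did not overlap, but the log2 fold change of 0.27 (SE 0.19) did not pass the test (edgeR quasi-likelihood adjusted p = 0.999). The 12 macrophage markers, among them Csf1r, Cd68 and Lyz2, summed to 8999 to 11037 FPKM in the Cxcr4+ and 8193 to 9481 FPKM in the Cxcr4- libraries. Markers of other cells were low: fibroblast markers (10 genes) summed to 4.94 to 18.2 FPKM against 3.64 to 4.25 FPKM, with the 18.2 in Cxcr4+ library 1, epithelial markers (10 genes) to 1.84 to 3.38 FPKM against 3.6 to 6.34 FPKM, and T and NK cell markers (10 genes) to at most 0.102 FPKM, with 6 of them at 0 in every library. The fibroblast and epithelial differences were small in FPKM, but neither pair of sums overlapped between the groups. The median log2 fold change was 1.49 over the 8 fibroblast markers tested (7 positive) and -0.90 over the 8 epithelial markers tested (8 negative), with 0 past the threshold. Whether these differences bear on the values below was not tested.

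The subunit transcripts of the Cxcr4+ and Cxcr4- macrophages were at nearly the same level in every complex. None of the 82 genes passed the threshold of an adjusted p under 0.05 (edgeR quasi-likelihood test with Benjamini-Hochberg adjustment over all 16031 genes), with the lowest adjusted p at 0.998. Over all genes 5 passed, 0.0312%, of which 2 were higher in Cxcr4+ (0.0125%) and 3 lower (0.0187%). At an unadjusted p under 0.05 there were 4 subunit genes, Atp5j, Cox7a2, Atp5j2 and Ndufa4, where 4.85% of all genes stood there. DESeq2 likewise called 0 of the 82. These are bulk libraries, in which fewer cells of a type and less RNA per cell cannot be told apart.

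Direction was mixed. The log2 fold change was negative, lower in Cxcr4+, for 49 of the 82 genes, 59.8%, and positive for 33. Over all genes tested the negative share was 49.9%, and over the more abundant genes, those averaging 10 FPKM or more, it was 53.1%. The median log2 fold change of the 82 genes was -0.03, and their range was -0.69 to 0.41. The median over all genes was 0.00041. This median was as small as its own variation: it lay between -0.05 and 0.01 when any 1 library was left out, and it was 0.01 without Cxcr4+ library 1 or without Cxcr4- library 2.

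The data also limited, for each gene taken alone, how large a difference between these libraries could have been missed. The intervals below are not adjusted for the number of genes. Like the p-values, they cover variation among libraries that may be technical. The median size of the log2 fold change, regardless of sign, was 0.07 for the subunits, 0.14 for all genes and 0.09 for genes averaging 10 FPKM or more. The SD of log2 values within a group had a median of 0.13 for the subunits, 0.24 for all genes and 0.13 for genes of at least 10 FPKM, so the steadiness of the subunits was that of abundant genes in general. The 95% confidence interval of the fold change lay wholly within 2-fold, a log2 of 1 in either direction, for 80 of 82 subunits, the exceptions being Ndufs6b and Cox7a1, the lowest members. It lay within 1.5-fold for 72 of 82.

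**Figure D1:**
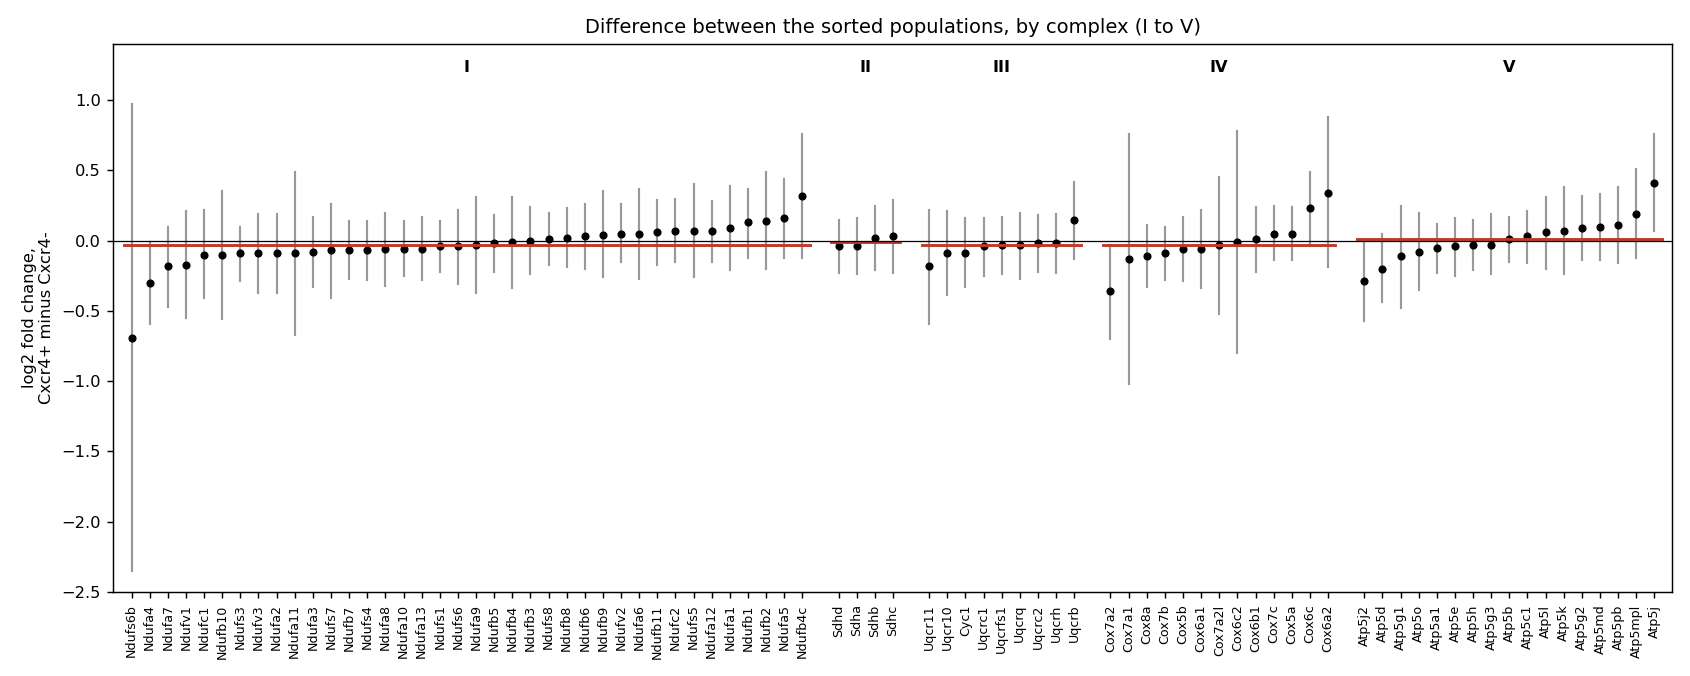
Log2 fold change, Cxcr4+ minus Cxcr4-, of 81 of the 82 subunit genes (points), with its 95% confidence interval from the edgeR fit (grey lines), grouped by complex and ordered within it. Red lines mark the median of each complex, between -0.03 and 0.01. The intervals of 4 genes leave out 0 before adjustment, and the widest belongs to Ndufs6b.

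The complexes did not separate from each other. The median log2 fold change was -0.03 in complex I (23 genes lower, 16 higher), -0.01 in complex II (2 and 2), -0.03 in complex III (8 and 1), -0.03 in complex IV (8 and 5) and 0.01 in complex V (8 and 9). The 8 negative values of complex III ran from -0.18 for Uqcr11 to values near 0, and none had an unadjusted p under 0.05. The median of complex IV was 0.01 when Cxcr4+ library 1, Cxcr4+ library 3 or Cxcr4- library 1 was left out.

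FPKM is scaled to transcript length, and on that scale the subunits of a complex were added up. The sums depend on the lengths used in the deposited processing, which weight genes unevenly. Ndufb7, for example, had 2853 to 3660 counts per library at a mean of 12.7 FPKM. Ndufa2 had 2950 to 4244 counts at 112 FPKM. Complex I summed to 1343 ± 108 FPKM in Cxcr4+ and 1359 ± 125 FPKM in Cxcr4- macrophages (SD, n = 3 libraries each here and below). Complex II summed to 272 ± 25.1 and 274 ± 23.5 FPKM, and complex III to 709.9 ± 80.3 and 724 ± 77.6 FPKM. Both pairs differed by far less than the spread between libraries.

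Complex IV showed the largest gap between the summed means. Its 13 genes added up to 1383, 1445 and 1417 FPKM in Cxcr4+ libraries 1, 2 and 3 and to 1526, 1484 and 1379 FPKM in the Cxcr4- libraries. The Cxcr4+ values lay inside the range of the Cxcr4- values, and the ratio of the means was 0.967. Complex V added up to 1161 ± 77.2 and 1156 ± 78.9 FPKM. Together the 82 genes made up 0.841 to 0.969% of each library's counts.

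**Figure D2:**
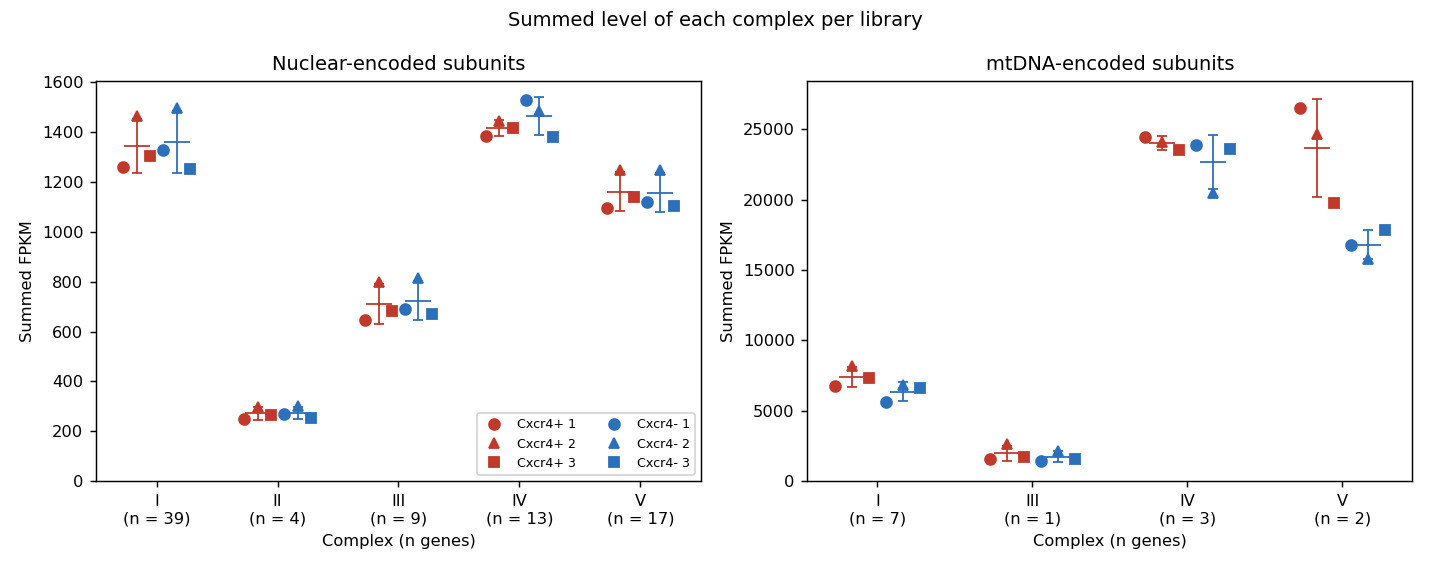
Summed FPKM of the nuclear-encoded subunits (left) and of the mtDNA-encoded subunits (right) of each complex, 1 point per library, with the group mean and SD (n = 3). On the left the groups overlap in all 5 complexes. On the right they overlap in complexes I, III and IV but not in complex V, with 19774 to 26499 FPKM in Cxcr4+ and 15770.3 to 17859 FPKM in Cxcr4- libraries.

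Within a complex, levels in FPKM spread widely although the proteins assemble in fixed proportions. The spread also depends on the transcript lengths used, since counts of the same genes can lie closer. Ndufb5 had 3620 to 4180 counts per library at a mean of 13.7 FPKM, beside 2950 to 4244 counts for Ndufa2 at 112 FPKM. Mean FPKM over the 6 libraries ran from 1.6 to 333 over the 82 genes with a median of 43.6; 75 genes had at least 10 FPKM and 13 at least 100. Cox8a, a small subunit of complex IV, led all 82, followed by Cox6b1 and Cox6a1 of the same complex. Atp5b and Uqcrh came next, both at 198 FPKM.

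Complex I is built from a catalytic core, which carries the flavin and the iron-sulfur clusters, and a larger shell of accessory subunits. Of the nuclear core subunits, Ndufs1, the largest, had a mean of 8.35 FPKM, and Ndufs8 had 101 FPKM. The median log2 fold change of the 29 accessory subunits was -0.02. Ndufs3, also of the core, was among the steadiest: it stood at 20.31 to 22.11 FPKM in Cxcr4+ and 22.14 to 22.98 FPKM in Cxcr4- libraries, so the groups did not overlap, with a log2 fold change of -0.09 (SE 0.08). Ndufa2, an accessory subunit, had the highest level of the complex, 97.2, 126 and 102 FPKM in Cxcr4+ and 119, 127 and 98.4 FPKM in Cxcr4- libraries 1, 2 and 3. Library 2 was the highest of each group.

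Ndufa4 has a complex I name, but its protein is now counted as a subunit of complex IV. It was at 52.0, 58.6 and 41.2 FPKM in Cxcr4+ and 59.1, 70.0 and 56.5 FPKM in Cxcr4- libraries 1, 2 and 3. The groups overlapped, since Cxcr4+ library 2 lay above Cxcr4- library 3. The log2 fold change was -0.30 (SE 0.12, unadjusted p = 0.0457, edgeR quasi-likelihood adjusted p = 0.999), a mean of 50.6 ± 8.78 against 61.9 ± 7.16 FPKM (SD, n = 3). Counted with complex IV, it moved that complex's median log2 fold change from -0.03 to -0.05 and left complex I at -0.02. Ndufa4l2, its paralog known as a target of hypoxia signalling, was nearly absent, at a mean of 0.00907 FPKM with at most 4 counts in a library. Ndufa7, an accessory subunit, had a log2 fold change of -0.18.

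Complex II was the most even. Sdhd, one of the membrane anchors, was the highest at 144, 171 and 157 FPKM in Cxcr4+ and 160.4, 171 and 151 FPKM in Cxcr4- libraries 1, 2 and 3. Sdha, the flavoprotein that oxidises succinate and also serves the TCA cycle, stood at 39.3 ± 4.39 against 40.2 ± 3.34 FPKM, Sdhb, the iron-sulfur subunit, at 38.9 ± 3.24 against 38.3 ± 5.07, and Sdhc, the other anchor, at 36.1 ± 4.83 against 35.3 ± 5.74. No log2 fold change of the complex was larger than 0.04 in size, and the 95% intervals of Sdha and Sdhc ran from -0.24 to 0.16 and from -0.23 to 0.29. The mean FPKM of Sdhd was 4.46 times that of Sdhc, the lowest member of the complex.

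In complex III, Cyc1, the cytochrome c1 that passes electrons to cytochrome c, stood at 46.6, 51.9 and 40.2 FPKM in Cxcr4+ and 44.5, 56.4 and 46 FPKM in Cxcr4- libraries 1, 2 and 3. Its log2 fold change was -0.09 (SE 0.10). The Rieske iron-sulfur subunit Uqcrfs1 was at 61.0 ± 6.33 against 62.2 ± 2.6 FPKM. Uqcrh, the acidic hinge protein that helps dock cytochrome c, was the most abundant at 197 ± 17.0 against 199 ± 23.4 FPKM, and the core protein Uqcrc1 the least at 37.3 ± 4.43 against 38.2 ± 3.44. Uqcrb was the member with a positive value, 73.8, 89.6 and 84.9 FPKM against 75.8, 85.4 and 62.6 FPKM, a log2 fold change of 0.15 (SE 0.12) with overlapping groups. Uqcr11, a small membrane subunit, varied more between libraries of a group, at 44.9, 64.5 and 38.3 against 48.0, 63.5 and 55.0 FPKM.

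The catalytic subunits of complex IV are mtDNA-encoded, and its nuclear subunits include isoforms that differ between tissues. Cox8a was at 319, 305 and 339 FPKM in Cxcr4+ and 348, 343 and 345 FPKM in Cxcr4- libraries 1, 2 and 3. Every Cxcr4+ library was below every Cxcr4- library, by a log2 fold change of -0.11 (SE 0.09). The gap is small beside the 95% interval of -0.33 to 0.11.

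Cox7a2, the isoform of subunit 7a found in most tissues (GRCm39 chr9:79662643-79667160, minus strand), gave the largest negative value of a gene with over 100 counts per library. It stood at 53.6, 69.2 and 65.8 FPKM in Cxcr4+ and 86.6, 69.2 and 84.4 FPKM in Cxcr4- libraries 1, 2 and 3. The groups were narrowly apart, the highest Cxcr4+ value being 69.19 and the lowest Cxcr4- value 69.24 FPKM, both from libraries numbered 2. The log2 fold change was -0.36 (SE 0.14, 95% interval -0.70 to -0.03), with an unadjusted p of 0.0365 and an edgeR quasi-likelihood adjusted p of 0.998. It was between -0.49 and -0.27 when any 1 library was left out.

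Of the muscle isoforms, Cox7a1 had 2.2 ± 0.618 FPKM (SD over 6 libraries) beside 71.5 ± 12.3 for Cox7a2, and Cox6a2 had 9.41 ± 2.27 beside 245 ± 19.7 for Cox6a1, the isoform of most tissues. Cox8b, the muscle counterpart of Cox8a, and the testis isoforms Cox8c and Cox7b2 had 0 counts in every library, and Cox6b2, also a testis isoform, had at most 7 counts beside 261 ± 28.8 FPKM for Cox6b1. The 10 muscle and adipose markers summed to at most 0.878 FPKM in any library. The gene span of Cox6a2 overlaps that of Itgad, an integrin gene on the opposite strand whose own mean was below 1 FPKM. Cox6a2 gave a log2 fold change of 0.34 (SE 0.23) and Cox6c 0.23 (SE 0.11), neither with an adjusted p under 0.05.

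Cox7a2l, described as a factor that joins complexes III and IV into supercomplexes, of which C57BL/6 mice carry a short form reported to be defective in this, showed another pattern, high in library 1 of both groups: 160.2, 118 and 118 FPKM in Cxcr4+ and 169.7, 122 and 112 FPKM in Cxcr4- libraries 1, 2 and 3. Its log2 fold change was -0.03 (SE 0.21). Cox4i1, the subunit 4 isoform of most tissues, which the name rule does not reach, was more variable still, at 164, 299.6 and 148 against 279, 206 and 138 FPKM, with a log2 fold change of -0.05 (SE 0.32). The other subunits the rule does not reach were lower, with means of 6.34 FPKM for Ndufab1, the acyl carrier protein of complex I, 2.38 for Dmac2l of complex V and 1.25 for Cox4i2.

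**Figure D3:**
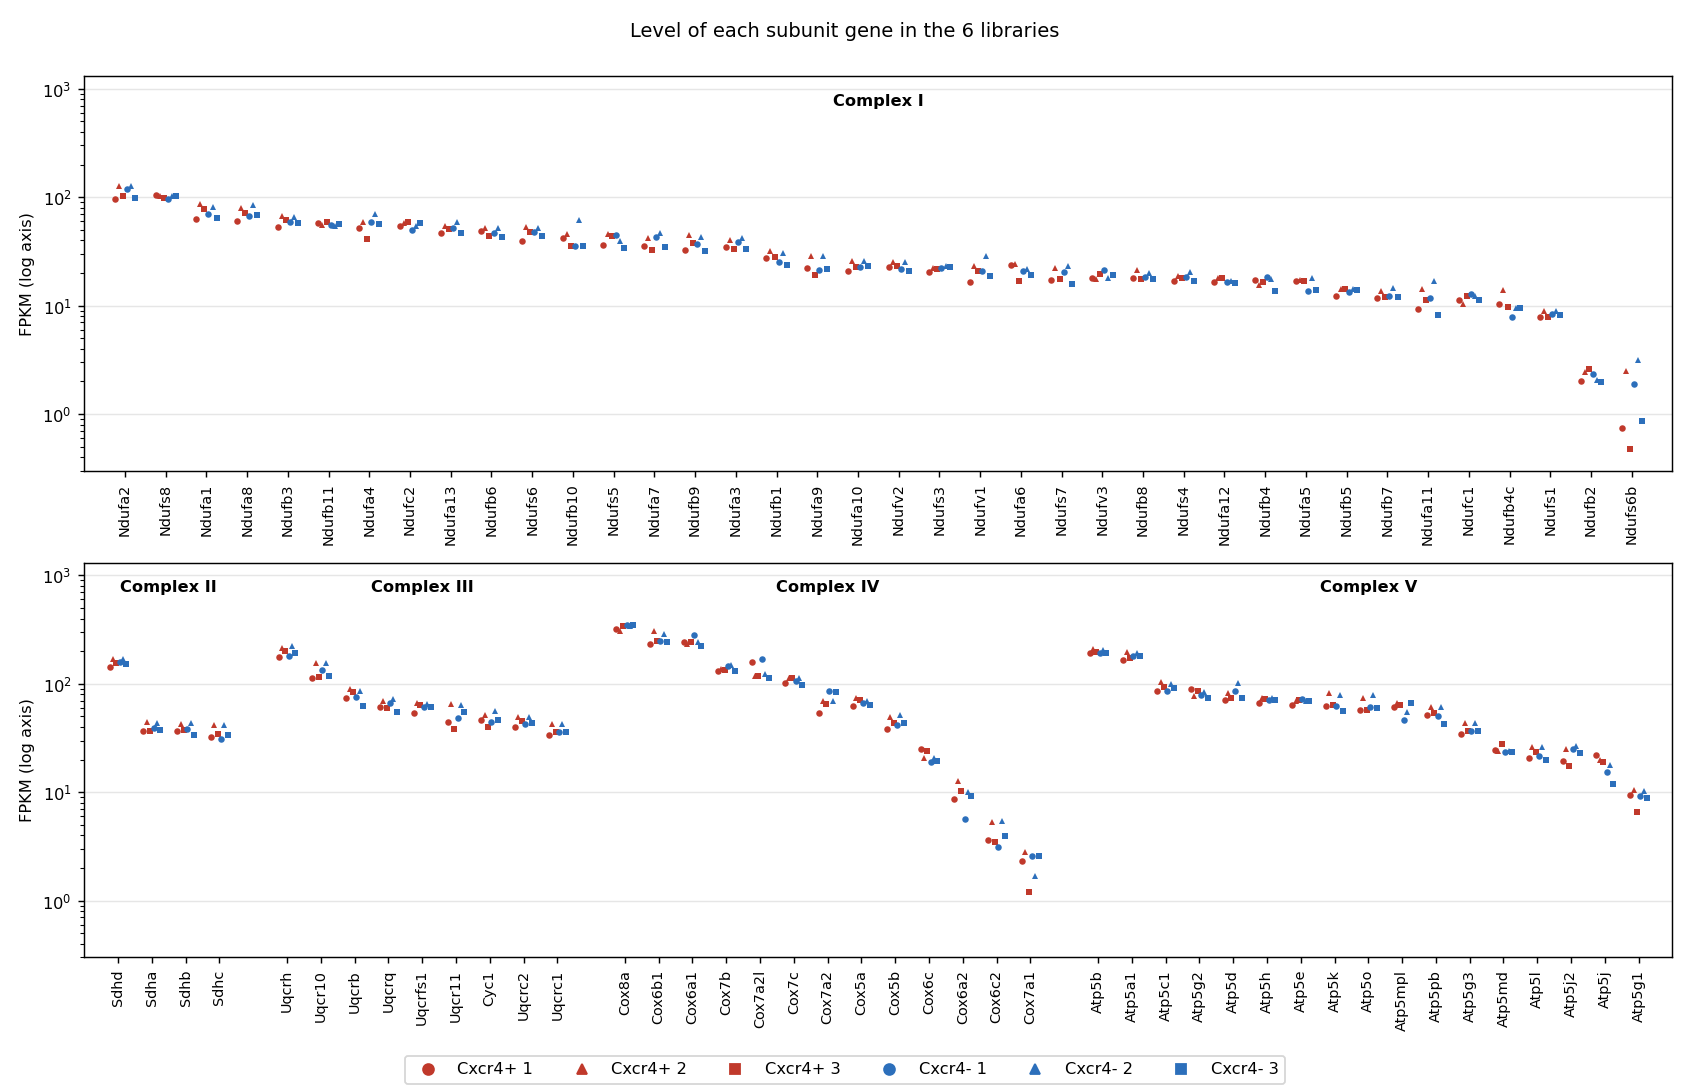
FPKM of 81 of the 82 subunit genes in the 6 libraries on a log axis, complex I above and complexes II to V below, ordered by mean level. Red symbols are Cxcr4+, blue symbols Cxcr4- libraries, and the shape gives the library number. The colours intermix for nearly all genes, but the groups are apart for 6, among them Cox8a. Mean levels run from 333 FPKM for Cox8a to 1.6 FPKM for Ndufs6b.

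The ATP synthase has a catalytic F1 head, a rotating ring of c subunits in the membrane and a peripheral stalk that holds the head still. Atp5b, the catalytic beta subunit, was the steadiest of all 82 genes, at 193, 208 and 197 FPKM in Cxcr4+ and 194, 204 and 193 FPKM in Cxcr4- libraries 1, 2 and 3, backed by 42900 to 51654 counts per library. Its log2 fold change was 0.01 (SE 0.07), and the SD within a group was 0.03 on the log2 scale. The alpha subunit Atp5a1 stood at 181 ± 11.7 FPKM over all 6 libraries. The remaining head subunits had means of 93.6 (Atp5c1), 81.2 (Atp5d) and 69.3 FPKM (Atp5e), below alpha and beta. Alpha and beta are present in more copies per enzyme, but whether transcript levels follow copy number was not tested. The median log2 fold change of these 5 head genes was -0.04.

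Subunit c is made from 3 nuclear genes that encode the same mature protein behind different import sequences. Atp5g2 was the most abundant at 81.8 ± 5.51 FPKM (SD over 6 libraries), followed by Atp5g3 at 38.7 ± 3.9 and Atp5g1 at 9.15 ± 1.4. The order held in each library, with no overlap between the genes. Counts kept the order with smaller ratios. They ran from 6520 to 9400 per library for Atp5g2, 4162 to 5554 for Atp5g3 and 1894 to 3011 for Atp5g1. Summed, the 3 genes gave 133, 132 and 129.8 FPKM in Cxcr4+ and 125, 138 and 119.6 FPKM in Cxcr4- libraries 1, 2 and 3, and the groups overlapped.

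The genes outside the head and the ring included the 2 of complex V with an unadjusted p under 0.05. Atp5j, coupling factor 6 of the stalk (GRCm39 chr16:84624754-84632513, minus strand), was at 21.9, 19.7 and 19.0 FPKM in Cxcr4+ and 15.5, 18.0 and 11.9 FPKM in Cxcr4- libraries 1, 2 and 3. Each Cxcr4+ library lay above each Cxcr4- library, and Cxcr4- library 3 was the lowest. The log2 fold change was 0.41 (SE 0.15, 95% interval 0.07 to 0.76, unadjusted p = 0.0244, edgeR quasi-likelihood adjusted p = 0.998), the largest positive value among the 82. The span of Atp5j overlaps that of Gabpa, a transcription factor gene on the opposite strand. Overlaps with a gene of at least 1 FPKM were found for 14 of the 82 members, among them also Ndufa2, Ndufs3 (with Kbtbd4), Uqcrh, Cox6c (with Vps13b), Atp5a1, Atp5b and Atp5md (with Taf5). Whether counting used strand is not known, so reads of genes that overlap on opposite strands may not be told apart.

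Atp5j2, subunit f of the membrane part, went the other way, at 19.3, 25 and 17.4 FPKM in Cxcr4+ and 24.8, 26.8 and 23.1 FPKM in Cxcr4- libraries 1, 2 and 3. Library 2 of the Cxcr4+ group lay within the Cxcr4- range, so the groups overlapped. The log2 fold change was -0.29 (SE 0.12, unadjusted p = 0.0456, edgeR quasi-likelihood adjusted p = 0.999). Atp5d, the delta subunit of the head, followed with -0.20 (SE 0.11). Atpif1, the inhibitor that stops the enzyme from running backwards and is not reached by the name rule, stood at 85.5, 109 and 98.5 against 94.0, 111 and 94.0 FPKM, a log2 fold change of -0.04.

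In all, 6 of 82 subunit genes (7.32%) had FPKM values that did not overlap between the groups, where 10.4% of all genes tested had such values. Of these, 3 were higher in Cxcr4+ (Atp5j, Atp5md and Ndufb4c), beside 5.5% of all genes, and 3 were lower (Cox7a2, Cox8a and Ndufs3), beside 4.87%. Atp5md, a small membrane subunit of complex V, was at 23.92 to 27.55 FPKM in Cxcr4+ and 23.56 to 23.75 FPKM in Cxcr4- libraries. The share was no higher than the background.

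A difference between libraries ran across the subunits in both groups. In the Cxcr4+ group, library 2 was the highest of the 3 for 46 of 82 genes (56.1%), and in the Cxcr4- group library 2 was the highest for 44 (53.7%). Library 2 was the highest in both groups for 35 (42.7%). Over all genes tested these shares were 39.1%, 37.3% and 22.5%, and over genes with at least 10 FPKM they were 36.9%, 33.8% and 23.3%. The TMM scaling factors of the libraries numbered 2 were 1.046 and 1.054 and those of the other 4 libraries 0.9611 to 0.9846.

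The pattern was present in complex I (22 of 39 genes in Cxcr4+ and 21 in Cxcr4-), complex II (4 of 4 and 3), complex III (5 of 9 and 7) and complex V (10 of 17 and 9). In complex IV library 2 was the highest for 5 of 13 genes (38.5%) in Cxcr4+ and 4 (30.8%) in Cxcr4-. These shares were no higher than the 39.1% and 37.3% of all genes tested. The median deviations of complex IV in the libraries numbered 2 were 0.0043 and -0.03. Library 2 was the highest in both groups for 30.8% of its genes, beside 22.5% of all genes. The median deviation from a gene's mean over the 6 libraries, in log2 CPM (counts scaled to library size), was -0.08, 0.06 and 0.01 in Cxcr4+ libraries 1, 2 and 3 and 0.03, 0.06 and -0.06 in the Cxcr4- libraries. The spread across libraries within a group was thus wider than the median difference between the groups. The median of the 12 macrophage markers deviated the other way in libraries 2, with -0.12 in Cxcr4+ and -0.16 in Cxcr4-, beside 0.13 and 0.07 in Cxcr4+ libraries 1 and 3 and 0.08 and 0.01 in Cxcr4- libraries 1 and 3. Single markers were mixed. Lyz2 was lowest in library 2 of each group, at 6053 and 5337 FPKM, but Csf1r was highest there, at 94.5 and 88.4 FPKM. The part of the markers in the pattern was not tested. Without both libraries numbered 2, the median log2 fold change of the 82 genes was -0.03 and 46 were negative, and again 0 passed the threshold.

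**Figure D4:**
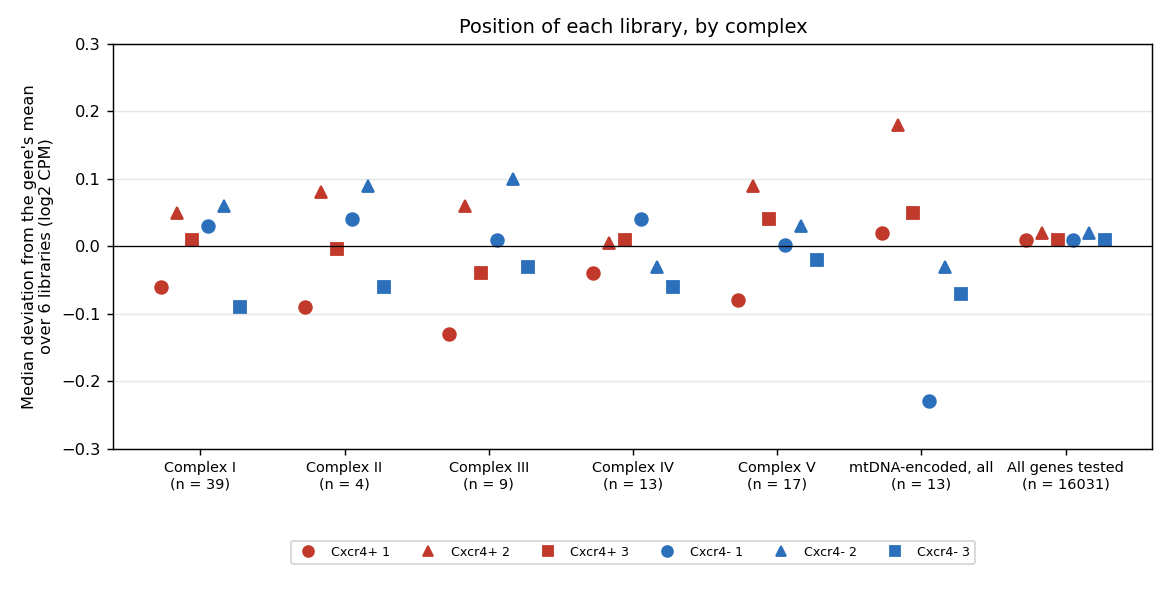
Median deviation of the genes of each complex from their own mean over the 6 libraries (log2 CPM), 1 symbol per library, with the mtDNA-encoded genes and all genes tested on the right. Triangles, the libraries numbered 2, are among the 3 highest libraries in complexes I, II, III and V, while Cxcr4+ library 1 is the lowest in complexes II, III and V. All genes tested lie between 0.01 and 0.02 in each library.

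The partner subunits made inside the mitochondrion gave higher fitted values. The log2 fold change of all 13 mtDNA-encoded subunits was positive, with a median of 0.21, and none passed the threshold. This list was known from earlier results of these data to lie higher in Cxcr4+ and is given as the counterpart of the nuclear genes, not as a separate observation. The largest were mt-Atp8 at 13254, 12090.1 and 9466 FPKM in Cxcr4+ and 7384, 7052 and 7932 FPKM in Cxcr4- libraries (log2 fold change 0.63, SE 0.13, edgeR quasi-likelihood adjusted p = 0.678) and mt-Atp6 at 13246, 12599 and 10308 against 9407, 8718 and 9927 FPKM (0.36, SE 0.11, adjusted p = 0.953). The 2 reading frames overlap on one transcript, so counting could split their reads. Of the 20 proliferation genes, all 20 were likewise positive, with a median log2 fold change of 0.27, and 9 had an unadjusted p under 0.05, beside 4.85% of all genes, though 0 passed the threshold. Their part in the mtDNA-encoded values was not tested.

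Set against the nuclear partners, the summed FPKM of mtDNA-encoded over nuclear-encoded subunits was 13.5, 12.0 and 11.5 in Cxcr4+ and 10.2, 8.98 and 11.3 in Cxcr4- libraries 1, 2 and 3, for complexes I, III, IV and V together. The groups did not overlap, though Cxcr4- library 3 came close. Of the mean mtDNA-encoded sums, 57073 FPKM in Cxcr4+ and 47583 FPKM in Cxcr4-, complex V held 23654 and 16807 FPKM. The combined ratio thus depends much on mt-Atp6 and mt-Atp8, and how reads of their overlapping frames were counted is not known. No combined ratio without complex V is given, so a separation outside complex V cannot be read from it. In complex V the ratio was 24.2, 19.8 and 17.3 against 15, 12.7 and 16.2, and in complex I it was 5.36, 5.58 and 5.61 against 4.22, 4.58 and 5.31. In complexes III and IV the groups overlapped. For complex V the mtDNA-encoded sum was 23654 ± 3479.7 against 16807 ± 1045 FPKM, while the nuclear sums, given above, differed by less than their spread. With 3 libraries per group, the smallest p of an exact two-sided permutation test is 0.1, and no p is given for these sums.

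The machinery around the complexes was described by lists drawn up for this purpose. Assembly factors, which build the complexes but are not part of them, gave a median log2 fold change of 0.04 for complex I (9 of 17 positive), -0.13 for complex II (0 of 4), 0.03 for complex III (3 of 6), -0.04 for complex IV (9 of 25) and 0.01 for complex V (3 of 5). None passed the threshold in the edgeR test, and 1, Cox11, which delivers copper to complex IV, had an unadjusted p under 0.05. Cox11 was at 2.84, 2.88 and 3.5 FPKM in Cxcr4+ and 1.75, 2.20 and 2.53 FPKM in Cxcr4- libraries 1, 2 and 3, a log2 fold change of 0.51 (SE 0.21). Sdhaf1, which helps insert the iron-sulfur clusters of complex II, was lower in each Cxcr4+ library, at 13.9, 13.2 and 13.3 against 14.7, 14.7 and 15.1 FPKM, a log2 fold change of -0.14 (SE 0.10).

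The mobile electron carriers link the complexes. Cytochrome c, Cycs, stood at 46.4, 52.0 and 53.2 FPKM in Cxcr4+ and 42.0, 48.1 and 46.4 FPKM in Cxcr4- libraries 1, 2 and 3, with overlapping groups and a log2 fold change of 0.15 (SE 0.08). Of 14 tested genes for carriers and ubiquinone synthesis 9 were positive, the median was 0.02, and 0 passed the threshold. Coq8a, which supports ubiquinone synthesis, had the largest negative value of them: it was at 1.44, 1.25 and 2.40 FPKM in Cxcr4+ and 3.53, 2.65 and 3.08 FPKM in Cxcr4- libraries 1, 2 and 3. The groups did not overlap, and the log2 fold change was -0.86 (SE 0.28, unadjusted p = 0.0167, edgeR quasi-likelihood adjusted p = 0.953).

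The TCA cycle, which supplies NADH and succinate, had a median of -0.03 over 18 genes (8 positive), and the mitochondrial ribosome, which translates the mtDNA-encoded subunits, 0.02 over 44 genes (24 positive). In neither list did a gene pass the threshold or reach an unadjusted p under 0.05. Of the regulators of mitochondrial gene expression, 13 of 18 had a negative value, beside 49.9% of all genes tested, with a median of -0.09. None of the 18 passed the threshold in the edgeR test, and 0 had an unadjusted p under 0.05. Ppargc1b, a coactivator of respiratory genes, was at 3.61, 3.08 and 2.70 FPKM in Cxcr4+ and 3.85, 3.72 and 3.90 FPKM in Cxcr4- libraries 1, 2 and 3, a log2 fold change of -0.29 (SE 0.15). Nrf1, the gene of nuclear respiratory factor 1, was at 1.59, 2.20 and 1.84 against 1.72, 1.74 and 1.39 FPKM (0.20, SE 0.14). The lists differed in how the libraries numbered 2 stood: the median deviation in Cxcr4+ and Cxcr4- library 2 was 0.21 and 0.14 for complex I assembly factors and 0.12 and 0.11 for the mitochondrial ribosome, but -0.01 and 0.03 for the regulators and -0.08 and 0.05 for complex V assembly factors.

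Several members have copies listed as genes of their own, and how reads that match a gene and its copy were counted is not known. Ndufa12-ps, a processed pseudogene, was listed at 137 ± 13.6 FPKM, 8.1 times the 17.0 FPKM of Ndufa12 itself, and Cox5b-ps at 27.2 ± 4.87 FPKM beside 44.6 for Cox5b. Such ratios depend on the lengths used for scaling. In counts per library, Ndufa12-ps had 2712 to 3541 beside 1325 to 1645 for Ndufa12. Cox5b-ps had 469 to 734 beside 3610 to 4571 for Cox5b. Of the 82 members, 3 are processed pseudogenes by the biotype in the table: Ndufb4c at 10.1 FPKM beside a parent gene Ndufb4 at 16.4, Cox6c2 at 4.16 beside Cox6c at 21.5, and Ndufs6b at 1.6 beside Ndufs6 at 47.2. In counts per library, Ndufb4c had 175 to 317 beside 1365 to 2068 for Ndufb4. How reads were divided between these genes and their parents was not tested, and their levels are uncertain to that extent. Ndufs6b held both the lowest fold change of the 82, -0.69, and the largest SD within a group, 0.96 on the log2 scale, from 10 to 62 counts per library. Without these 3 genes the median log2 fold change stayed at -0.03, with 47 of 79 negative.

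The members lie on 19 chromosomes, 3 of them on the X chromosome. Nuclear respiratory factor 1 (NRF1), the ETS factor GABP and YY1 are known activators of respiratory chain genes, and their motifs were searched on both strands in RefSeq promoters (GRCm38.p6, 250 bases before to 50 after the start), which were found for 66 of the 82 genes. The NRF1 core GCATGCGC was in 10 of 66 genes (15.2%) and in 3.05% of all 27025 genes with a promoter. Where the core lies on both strands, overlapping by 6 bases, it forms the palindrome GCGCATGCGC, which was in 5 of the 66 (7.58% against 1.07%). The ETS motif CCGGAAGT was in 5 (7.58% against 4.31%), and the YY1 motif AAGATGGCG in 7 (10.6% against 1.64%), in 6 of them 22 to 35 bases after the start. The background was all genes with a promoter, not matched for expression or base composition, so the shares cannot show that the motifs are particular to respiratory chain genes. These are matches of letters and say nothing of binding in these cells.

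The 4 matches to the palindrome that lie before the start are shown, 5′ to 3′ on the strand of the gene with the palindrome in capitals. They show how much the flanks of the same element differ from gene to gene. They were chosen after the values were seen. The first capital lies 42 bases before the start in Atp5g2 (chr15:102671055-102671114, minus strand), 50 in Atp5k (chr5:108434415-108434474, minus strand), 162 in Cox6a1 (chr5:115349086-115349145, minus strand) and 60 in Ndufa11 (chr17:56717677-56717736, plus strand).
Atp5g2: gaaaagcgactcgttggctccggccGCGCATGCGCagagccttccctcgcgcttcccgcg
Atp5k: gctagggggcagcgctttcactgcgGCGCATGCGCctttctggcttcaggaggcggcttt
Cox6a1: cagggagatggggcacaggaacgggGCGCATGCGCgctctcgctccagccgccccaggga
Ndufa11: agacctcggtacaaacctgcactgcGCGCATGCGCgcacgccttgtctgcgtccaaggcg
The genes behind these promoters did not share a direction: the log2 fold change was 0.09 for Atp5g2, 0.07 for Atp5k, -0.06 for Cox6a1 and -0.09 for Ndufa11.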

How the data were processed

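TRIzol was used to extract total RNA, per the labels' protocols. The submitters' processing notes name cutadapt, HISAT2, StringTie and the build GRCm39; their versions, the annotation release, counting settings and use of strand are not given in any source at hand. A single table of 53647 genes was deposited by the authors, with estimated counts and FPKM for every library, per the file headers. Rounding changed 0 counts. Low counts (1 to 20) were multiples of 4 in 43.2% of cases, so a count is not always 1 read. The minimum FPKM listed where a count is 0 was read as 0.

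The fit used edgeR 4.0.16 (R 4.3.3) on those counts: filterByExpr with minimum count 10 and minimum total 15, TMM, the quasi-likelihood test in its legacy form, and group as the sole term, Cxcr4+ minus Cxcr4-. Standard errors are |log2 fold change| over the square root of F. Adjusted p-values are Benjamini-Hochberg, with a threshold of 0.05. The procedure was tested on counts simulated gene by gene from the fitted means, library sizes and dispersions. Patterns shared across genes within a library were not simulated, and the outcome is not reported here. The biological coefficient of variation was 0.275. Alternatives were DESeq2 1.42.0, limma 3.58.1 (limma-trend), other scalings and filters, a replicate block and leaving out libraries.

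The members and lists were chosen with earlier results of these data known. In each complex the highest and lowest member and the 3 of smallest p were named, with every member past the threshold, every isoform pair or trio, Atpif1, the mtDNA-encoded subunits by complex, and up to 2 genes of smallest p per further list. Counts, sums and medians cover all members, 1 of which is not reported here on its own. Complexes followed the names, and Ndufa4 was also counted apart. The lists held macrophage, fibroblast, epithelial, acinar, neutrophil, T and NK, B, endothelial, muscle and adipose, and erythroid markers and proliferation genes. Acinar markers summed to at most 0.726 FPKM, neutrophil to 10.2, B cell to 36.4, of which Ighm made up most, endothelial to 1.27 and erythroid to 1.16. Coordinates of genes are those of the deposited table. Figures were drawn with matplotlib 3.10.9.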

Additional observations from a re-analysis of the deposited data

How the results depend on the processing

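Of the 82 subunit genes, 0 passed the threshold under every alternative run, with a lowest adjusted p of 0.454 when the libraries numbered 2 were set as a block and 0.55 in DESeq2. The block of libraries numbered 2 and the fit without both of them were chosen after seeing the data. Over all genes, 5 passed in the edgeR fit, 65 in DESeq2, 2 in limma-trend on log2(FPKM + 1), and 1 to 9 when 1 library was left out: 1 without Cxcr4+ library 1, Cxcr4+ library 3 or Cxcr4- library 1, and 9 without Cxcr4+ library 2. The cause was not tested.

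The replicate numbers were not taken to pair the libraries, as nothing in the labels says that they do. Deviations of same-numbered libraries from their group mean correlated at 0.0383, 0.141 and 0.0451. Those of different-numbered libraries ran from -0.089 to 0.0522, the highest being Cxcr4+ library 1 with Cxcr4- library 3. Deviations within groups of 3 depend on each other, so these correlations cannot tell whether the libraries were paired. With the replicate number as a block, 0 of all genes and 0 of the subunits passed (lowest adjusted p 0.467), and the median log2 fold change of the subunits was -0.03.

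The median of complex IV ran from -0.04 to 0.01 when 1 library was left out. The sign changed, in the same fits, for Atp5b (-0.0032 to 0.03), Atp5g1 (-0.21 to 0.05), Atp5g3 (-0.08 to 0.03), Cox6a1 (-0.13 to 0.07), Cox6b1 (-0.08 to 0.07), Cox7a1 (-0.35 to 0.13), Cox7a2l (-0.22 to 0.20), Sdhc (-0.05 to 0.12), Sdhd (-0.08 to 0.0045), Uqcrc1 (-0.10 to 0.01) and Uqcrh (-0.05 to 0.04), and without both libraries numbered 2 for Cox6b1 (-0.04) and Uqcrh (0.02). Atp5j, Cox7a2, Atp5j2 and Ndufa4 kept their sign in all 17 alternatives run on them.

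With 3 libraries per group, the 95% interval lay within 1.5-fold for 72 of the 82 genes, and depth limited Ndufs6b most, at 10 to 62 counts. The other medians and summed ratios moved by less than the spread between replicates.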
